A study of Mus musculus with 18 samples.

Results

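Immediate early genes are transcribed within minutes of a stimulus, without new protein synthesis, and most encode transcription factors or proteins that act at synapses. Described here are 9 of them in the mouse retina: Fos, Fosb, Jun, Junb, Atf3, Egr1, Nr4a1, Ier2 and Arc. They were followed through all probe sets of the deposited table whose platform annotation names 1 of these symbols and no other gene. This gave 10 of 45101 probe sets, 2 for Jun (1417409_at and 1448694_at) and 1 for every other gene, and 9 of the 18193 genes that the annotation names alone. The retinas came from male C57BL6/J mice aged 2 months. Eyes were injected once into the vitreous, at day 0, with the control that the labels call BSS (the vehicle below), dexamethasone (DEX) or triamcinolone (TAA), and retinas were collected at day 7 or at day 30. This gave 6 groups with 3 biological replicates each, hybridised to 18 Affymetrix arrays. The labels used here give no dose, no uninjected eye, and no statement of whether a replicate was 1 retina or a pool. The comparisons ask how 2 glucocorticoids given into the eye alter retinal gene expression at an early and a late time.

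Fos, Fosb, Jun, Junb and Atf3 are basic leucine zipper proteins; Fos and Jun proteins pair into the AP-1 factor, and Atf3 pairs with Jun proteins. Egr1 is a zinc finger factor, Nr4a1 an orphan nuclear receptor, Ier2 a small nuclear protein, and Arc a synaptic protein that takes part in the removal of AMPA receptors from the membrane. Their promoters commonly carry serum response elements, bound by SRF with its Elk partners downstream of MAP kinases, and cAMP response elements, bound by CREB downstream of calcium and cAMP. In the retina, light, neuronal activity and injury induce these genes, Jun and Atf3 are known as injury genes of ganglion cells, and the ligand-bound glucocorticoid receptor can hold back AP-1 activity.

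The promoters of Fos, Nr4a1 and Jun are shown because Fos and Nr4a1 varied together over the arrays while Jun followed another pattern, as described further on. Each is the 250 bases before the transcription start in RefSeq (GRCm38.p6), written 5′ to 3′ on the gene's own strand, at chr12:85473640-85473889 (plus strand) for Fos, chr15:101266596-101266845 (plus strand) for Nr4a1 and chr4:95052223-95052472 (minus strand) for Jun. Capitals mark matches to the motifs named after the sequences.

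Fos: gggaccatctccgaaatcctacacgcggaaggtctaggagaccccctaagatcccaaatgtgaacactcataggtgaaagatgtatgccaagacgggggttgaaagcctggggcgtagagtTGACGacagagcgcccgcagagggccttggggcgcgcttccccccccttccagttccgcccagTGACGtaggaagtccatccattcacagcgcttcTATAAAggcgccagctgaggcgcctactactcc

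Nr4a1: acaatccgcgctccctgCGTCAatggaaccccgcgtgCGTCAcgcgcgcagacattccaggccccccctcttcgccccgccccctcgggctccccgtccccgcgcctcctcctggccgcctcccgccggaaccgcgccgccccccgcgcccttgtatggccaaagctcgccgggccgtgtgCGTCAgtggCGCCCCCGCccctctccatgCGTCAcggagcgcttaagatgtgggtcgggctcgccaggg

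Jun: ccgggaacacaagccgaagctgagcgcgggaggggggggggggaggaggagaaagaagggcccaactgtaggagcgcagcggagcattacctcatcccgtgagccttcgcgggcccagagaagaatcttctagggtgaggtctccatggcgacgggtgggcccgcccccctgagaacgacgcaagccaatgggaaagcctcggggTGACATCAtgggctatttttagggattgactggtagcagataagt

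Windows of 6 of the 9 genes were searched (Fos, Fosb, Jun, Junb, Nr4a1 and Atf3). For the members, the search left out chromosome 18, which holds Egr1, and no window was matched for Ier2 and Arc. Egr1, Ier2 and Arc are therefore named only, and the member counts below do not cover them. Each motif was searched on both strands. The core of the cAMP response element, TGACG, lay in 5 of the 6 windows (every one but Jun), against 17.75% of 32817 RefSeq windows of the same length. Fos held 2 copies, and Nr4a1 held 4, all on the opposite strand, where they read CGTCA. The EGR motif GCGNGGGCG lay in Fosb and Nr4a1 (4.702% of all windows), and TATAAA lay in Fos (12.372%). Jun held TGACATCA (2.931% of all windows), which was searched for after its window had been read. The serum response element's CArG box, the full TGACGTCA, the AP-1 motif TGANTCA and the palindromic glucocorticoid response element were in 0 of the 6 windows (1.469%, 1.548%, 6.753% and 0.387% of all windows). Only exact matches inside these windows were counted, so elements farther upstream or differing by a base were not seen, and a count of 0 does not show that a promoter lacks them. A match describes the letters of a window and is not a measured binding site.

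The arrays differed in ways that touch several values below. The deposited values are log2 values centred on each probe set's median over the 18 arrays, so they hold differences between arrays and no level of expression, and no gene can be set against another by abundance. For the same reason the retina label could not be checked by the presence of rod markers; the mean of 7 rod marker genes lay between -0.22 and 0.15 on every array. The standard deviation over all probe sets ran from 0.146 to 0.349 between arrays, with the highest values on TAA day 30 replicate 2 and TAA day 7 replicate 2 (0.338). The former also had the lowest Actb 3′ minus 5′ value, a measure of RNA quality from the control probe sets, at -0.459, against -0.167 to 0.137 on the other arrays. A lower value is less 3′ relative to 5′ signal, so it does not by itself mark degraded RNA. The Gapdh 3′ minus 5′ value of that array, -0.086, lay within the range of the others. The highest Gapdh value was 0.284, on DEX day 7 replicate 2. DEX day 30 replicates 1 and 2 correlated at 0.664 with each other, and replicate 3 correlated with them at a mean of -0.064. Lens marker genes, from tissue next to the retina, had means between -2.01 and 4.53. Precision is limited by 3 arrays a group.

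Egr1 and Fos were lowest in the triamcinolone retinas of day 30. In that group Egr1 differed from vehicle of the same day by -1.04 ± 0.28 on the log2 scale (SE, 3 arrays against 3), Fos by -0.80 ± 0.22 and Nr4a1 by -0.44 ± 0.17. At day 7 Egr1 had been on the other side of vehicle, at 0.45 ± 0.28. In a test over all 45037 non-control probe sets, 0 of the 10 member probe sets passed the adjusted threshold of 0.05 in any of the 12 comparisons (limma, Benjamini-Hochberg). The counts at an unadjusted p under 0.05 are given with each comparison. These are bulk retinas, in which fewer cells of a type and less RNA per cell cannot be told apart.

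**Figure D1:**
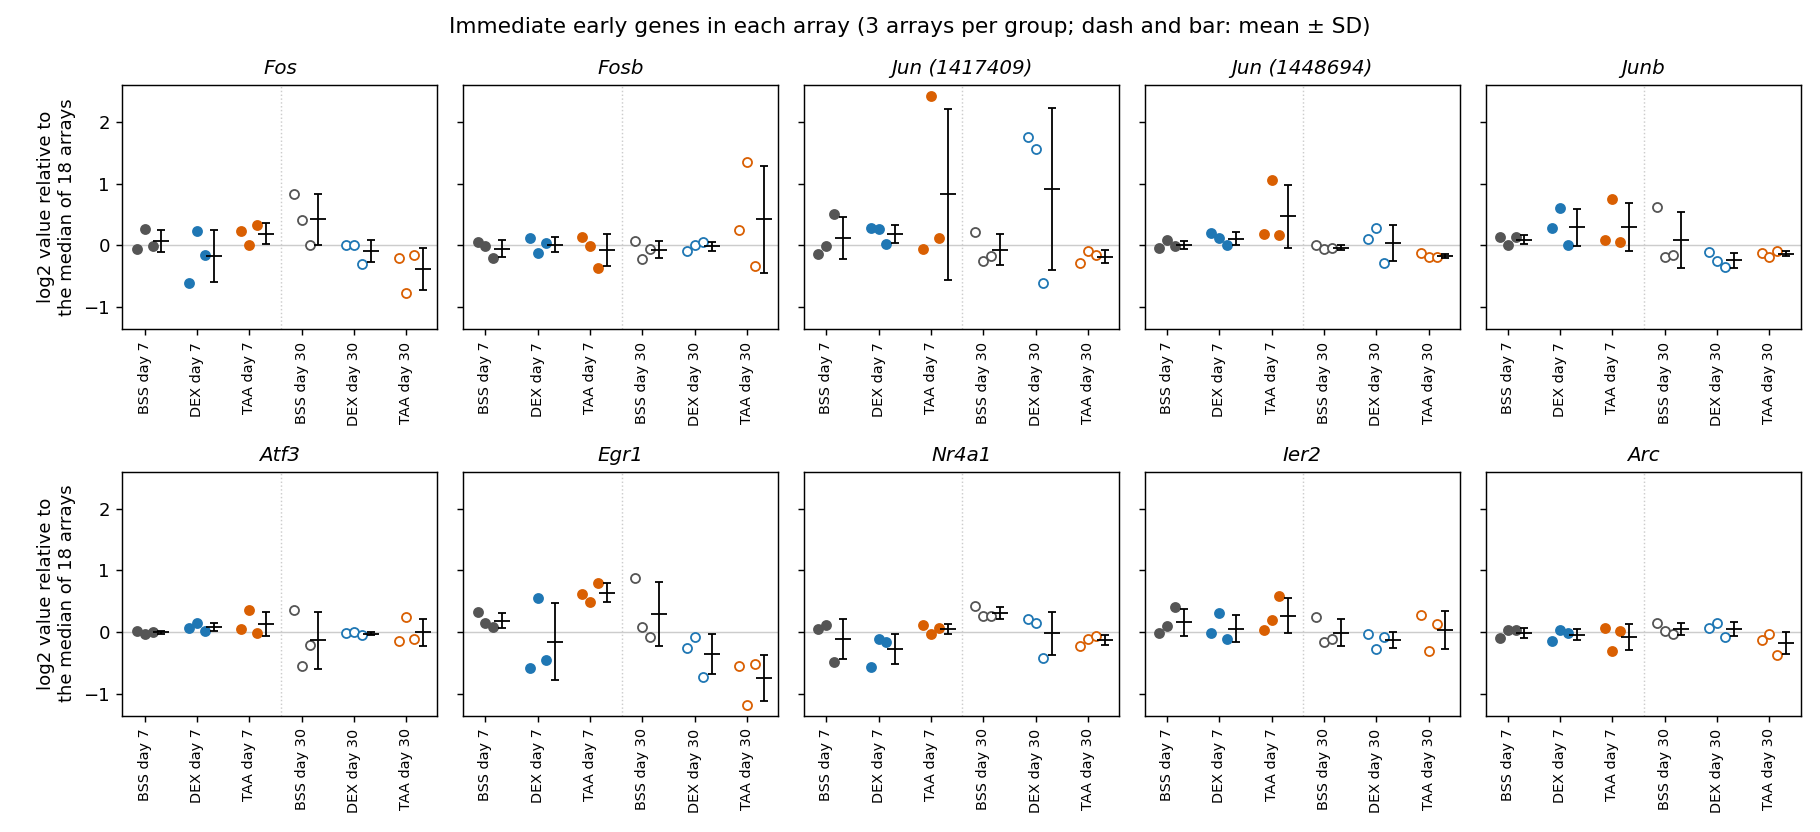
Log2 values of the 10 member probe sets on the 18 arrays, relative to each probe set's median over the arrays. Each point is 1 array, each dash a group mean and each bar its SD (n = 3). Grey is BSS, blue DEX and orange TAA, with filled points for day 7 and open points for day 30. Egr1 and Fos have their lowest group mean in TAA day 30 (-0.75 and -0.39), and the Jun panels show 1 high array in TAA day 7 and, for probe set 1417409_at, 2 in DEX day 30.

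Egr1 had the widest spread of the 10 probe sets by interquartile range over the 18 arrays, at the 99.8 percentile of all probe sets tested. Its relative log2 values in vehicle retinas were 0.32, 0.15 and 0.09 at day 7 and 0.88, 0.07 and -0.07 at day 30. With triamcinolone they were 0.62, 0.49 and 0.80 at day 7 and -0.56, -1.18 and -0.51 at day 30. All 3 triamcinolone arrays lay above all vehicle arrays at day 7 and below all of them at day 30. With dexamethasone the values were -0.59, 0.56 and -0.45 at day 7 and -0.27, -0.09 and -0.73 at day 30, so the day 30 arrays lay just below vehicle without overlap and the day 7 arrays spread on both sides of it. The group means ran from TAA day 7 (0.63 ± 0.15, SD) through BSS day 30 (0.29 ± 0.51), BSS day 7 (0.18 ± 0.12), DEX day 7 (-0.16 ± 0.63) and DEX day 30 (-0.36 ± 0.33) to TAA day 30 (-0.75 ± 0.37). Arrays of each pair of neighbours in this order overlapped.

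Fos, the partner of Jun proteins in AP-1, read -0.06, 0.27 and -0.02 in vehicle at day 7 and 0.83, 0.41 and 0.01 in vehicle at day 30. Triamcinolone arrays were at 0.22, 0.00 and 0.33 at day 7 and at -0.22, -0.78 and -0.16 at day 30. Dexamethasone arrays were at -0.60, 0.23 and -0.16 at day 7 and at -0.00, 0.01 and -0.31 at day 30. The order of the group means placed BSS day 30 first (0.42 ± 0.41, SD, n = 3) and TAA day 30 last (-0.39 ± 0.34), and every neighbour in the order overlapped. At day 30 both drug groups lay wholly below vehicle, dexamethasone by a narrow margin: its highest array rounded to the same 0.01 as the lowest vehicle array.

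Fosb, the close relative of Fos, stayed between -0.37 and 0.25 on 17 arrays and reached 1.36 on TAA day 30 replicate 2. That array gave the lowest Fos and the lowest Egr1 of all 18. The Fosb difference of triamcinolone from vehicle at day 30, 0.49 ± 0.27, was 0.02 without it.

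The 2 probe sets of Jun did not give the same picture. On probe set 1417409_at the day 7 values were -0.13, -0.02 and 0.50 in vehicle, 0.27, 0.26 and 0.02 with dexamethasone and -0.06, 2.42 and 0.12 with triamcinolone. At day 30 they were 0.21, -0.26 and -0.17 in vehicle, 1.76, 1.57 and -0.61 with dexamethasone and -0.30, -0.10 and -0.16 with triamcinolone. The second probe set, 1448694_at, also had its highest value on TAA day 7 replicate 2 (1.05), but gave 0.11, 0.28 and -0.29 with dexamethasone at day 30. The probe sets correlated over the 18 arrays at r = 0.813, yet the first exceeded the second by 1.65 and 1.28 on DEX day 30 replicates 1 and 2 and by 1.37 on TAA day 7 replicate 2, against 0.51 or less on the other 15 arrays. On TAA day 7 replicate 2 both probe sets were high, and on the 2 dexamethasone arrays the first was.

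Junb, which pairs with Fos proteins in AP-1, was highest on TAA day 7 replicate 2 (0.75), BSS day 30 replicate 1 (0.62) and DEX day 7 replicate 2 (0.60), each in a group whose other arrays lay at 0.27 or lower. Its day 30 values were -0.12, -0.26 and -0.36 with dexamethasone and -0.12, -0.18 and -0.10 with triamcinolone. Atf3, a stress-induced repressor, varied least of the 10 by interquartile range (5.23 percentile), and its extremes, 0.36 and -0.55, were both vehicle arrays of day 30.

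Nr4a1 read 0.42, 0.26 and 0.25 in vehicle at day 30 and 0.21 or lower on every other array. Its day 30 values were 0.21, 0.14 and -0.42 with dexamethasone and -0.22, -0.11 and -0.06 with triamcinolone. At day 7 the values were 0.04, 0.11 and -0.48 in vehicle, -0.56, -0.12 and -0.16 with dexamethasone and 0.12, -0.04 and 0.06 with triamcinolone. The BSS day 30 mean (0.31 ± 0.09, SD) was the first in the order of group means and did not overlap the next, TAA day 7 (0.05 ± 0.08).

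Ier2 ranged from -0.32 to 0.58 with overlapping groups in every drug comparison, its largest drug difference from vehicle being -0.12 ± 0.18 for dexamethasone at day 30. Arc, the activity marker of synapses, ranged from -0.37 to 0.15, at the 14.8 percentile of spread. Its triamcinolone arrays of day 30, at -0.14, -0.03 and -0.37, lay below the vehicle arrays at 0.15, 0.02 and -0.03, with -0.0293 against -0.0258 for the nearest pair.

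Against vehicle at day 30, triamcinolone retinas had lower values in 7 of the 10 member probe sets, with a median log2 difference of -0.18 against -0.02 over all probe sets. In 5 of the 10 (Egr1, Fos, Nr4a1, Arc and Jun 1448694_at) all drug arrays lay below all vehicle arrays, where 7.39% of all probe sets did. In 0 of 10 they lay above (5.36% of all). An unadjusted p under 0.05 was found for 3 of 10 (6.74% of all): Egr1, Fos and Nr4a1, with adjusted p = 0.721, 0.721 and 0.727 by limma and Benjamini-Hochberg, where 0 probe sets (0%) passed. The 95% interval of the Egr1 difference ran from -1.63 to -0.46, and that of Fos from -1.27 to -0.34. Leaving out any 1 array kept Egr1 between -1.23 and -0.75, Fos between -1.01 and -0.60 and Nr4a1 between -0.48 and -0.39. On the linear scale Egr1 was 2.06-fold and Fos 1.75-fold lower.

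The vehicle side of that comparison was uneven. BSS day 30 replicate 1 was the array on which all 10 member probe sets lay above 0, with a mean over the 9 genes of 0.42 against -0.07 and -0.06 on the other vehicle arrays of day 30. Without it the median over the member probe sets was -0.04, while Egr1 remained at -0.75 and Fos at -0.60. With the Actb 3′ minus 5′ value in the model, Egr1 was at -0.80 and Fos at -0.59, and without the 2 arrays of widest spread they were at -0.83 and -0.61. Ganglion cell markers were also lower: the mean of 7 marker genes was -0.26, -0.48 and -0.21 with triamcinolone at day 30 and 0.07, -0.20 and -0.10 in vehicle, with 2 of 7 higher. Bipolar cell markers had group ranges of -0.23 to -0.08 with triamcinolone and 0.11 to 0.14 in vehicle over 6 genes, of which 2 were higher. Microglia and leukocyte markers were lower in 9 of 10 genes (mean -0.29) and lens markers higher in 8 of 8 (0.32), with 0 past the adjusted threshold of limma. The part of these marker shifts in the result was not tested.

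**Figure D2:**
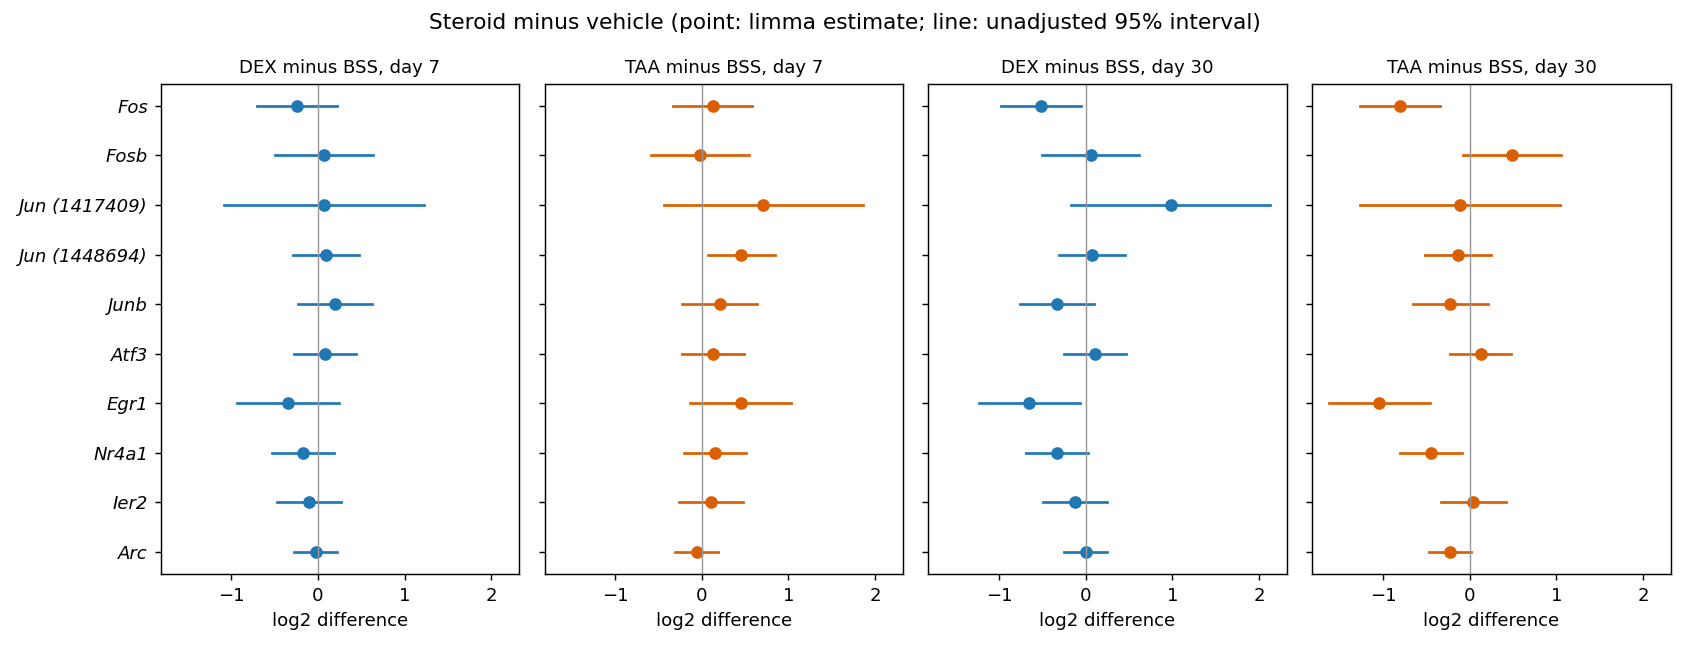
Log2 differences from vehicle of the 10 member probe sets for each drug and day, with 95% confidence intervals from the limma fit over 18 arrays (n = 3 a group). Blue is DEX minus BSS and orange TAA minus BSS, and each drug and day has its own panel. The Egr1, Fos and Nr4a1 intervals of TAA at day 30 lie below 0 before adjustment over all probe sets, and 0 of the 10 passed after it.

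The dexamethasone values of day 30 rest on these vehicle arrays too, so both drugs share them. Egr1 differed by -0.65 ± 0.28 (adjusted p = 0.409 by limma), Fos by -0.52 ± 0.22 (adjusted p = 0.408, limma) and Nr4a1 by -0.33 ± 0.17, and in these 3 of 10 the drug arrays lay below vehicle (8.6% of all probe sets). These 2 unadjusted calls compare with 11.3% of all probe sets, and 0% passed the adjusted threshold. Both calls leaned on BSS day 30 replicate 1, without which Egr1 was at -0.36 and Fos at -0.31. Nr4a1 was at -0.13 without DEX day 30 replicate 3. The median over the 10 was -0.06, as against -0.02 over all probe sets. Jun 1417409_at stood at the other end with 0.98 ± 0.55 (adjusted p = 0.498, limma). It was 1.74 with an adjusted p of 0.0464 (limma) once DEX day 30 replicate 3 was left out, and 0.55 or 0.65 without replicate 1 or 2. Microglia and leukocyte markers were lower than in vehicle in 10 of 10 genes (mean -0.47) and lens markers in 8 of 8 (-1.74), with 0 past the adjusted threshold of limma. Bipolar marker means lay between -0.12 and -0.06 with dexamethasone and between 0.11 and 0.14 in vehicle, with 4 of 6 genes lower and 2 higher. The reactive glia mean was -1.15 and -1.05 on the 2 arrays with high Jun 1417409_at, 0.19 on replicate 3, and -0.14, -1.06 and 0.47 in vehicle. The part of these markers in the member values was not tested.

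At day 7 triamcinolone gave higher values than vehicle in 8 of 10 member probe sets (47.7% of all were higher), with a median of 0.14. Egr1 (0.45 ± 0.28) and Jun 1448694_at (0.46 ± 0.18) lay above vehicle on every array, 2 of 10 against 4.26% of all probe sets. Jun was the 1 of 10 with an unadjusted p under 0.05 (3.75% of all), and 0.00222% of all probe sets passed the adjusted threshold. Without TAA day 7 replicate 2 it was 0.17, and the other Jun probe set turned from 0.71 ± 0.55 to -0.09. Egr1 stayed between 0.37 and 0.52 without any 1 array. Reactive glia markers were higher in 9 of 9 genes in the same comparison, with 0 past the adjusted threshold of limma. The mean over those genes was 0.88, 2.40 and 0.05 with triamcinolone and -0.21, -0.76 and -0.23 in vehicle, with the highest value on the array that gave the highest Jun and Junb. Other marker lists shifted to 1 side as well, with 0 past the adjusted threshold. Bipolar markers were higher in 6 of 6 genes (mean 0.27). Pigment epithelium markers were lower in 9 of 9 (-0.40) and cone markers in 6 of 6 (-0.23). The part of these markers in the Jun and other member values was not tested.

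Dexamethasone at day 7 gave no member an unadjusted p under 0.05 (0 of 10 in limma, 3.38% of all probe sets, with 0% past the adjusted threshold). The differences ran from -0.35 for Egr1 to 0.20 for Junb, with a median of 0.02. Both moved with single arrays: without DEX day 7 replicate 2 Egr1 was at -0.71 and Junb at 0.04, and without replicate 1 Egr1 was at -0.13 and without replicate 3 Junb was at 0.34. Only Atf3 lay above vehicle on every array, by 0.08 ± 0.17, 1 of 10 against 6.86% of all. Reactive glia markers were higher than vehicle here too, in 9 of 9 genes (mean 1.03), while the Jun probe sets were at 0.07 ± 0.55 and 0.09 ± 0.18. Microglia and leukocyte markers were higher in 10 of 10 genes (0.44) and bipolar markers in 6 of 6 (0.30), and lens markers were lower in 8 of 8 (-1.04). Of these markers 0 passed the adjusted threshold of limma, and their part in the member values was not tested.

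The steroids were set against each other at each day, 1 pair of compounds and 2 comparisons, with doses that the labels do not give. Both are fluorinated prednisolone derivatives. At day 7 Egr1 differed, dexamethasone minus triamcinolone, by -0.80 ± 0.28 (adjusted p = 0.733, limma), the 1 member with an unadjusted p under 0.05 (6.1% of all probe sets, 0% past the adjusted threshold). It passed when limma weighted the arrays by their residual spread (-0.92, adjusted p = 0.0413, limma). DEX day 7 replicate 2, at 0.56, lay within the triamcinolone range of 0.49 to 0.80. Nr4a1 differed by -0.32 ± 0.17 with no overlap, 1 of 10 against 5.45% of all, and by -0.18 without DEX day 7 replicate 1. The median over the 10 was -0.27, and -0.08 without TAA day 7 replicate 2. At day 30 the groups were apart in 0 of 10 (14% of all) and 0 of 10 had an unadjusted p under 0.05 in limma (15.8% of all, 0% past the adjusted threshold). The Egr1 difference was then 0.39, with a 95% interval from -0.20 to 0.97, and that of Fos was 0.29, from -0.17 to 0.75, so differences of either sign remain possible. Jun 1417409_at was at 1.09 ± 0.55, and at 1.85 with an adjusted p of 0.0291 (limma) without DEX day 30 replicate 3.

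Between the days, the median member difference lay furthest from 0 in triamcinolone retinas. There 9 of 10 probe sets were lower at day 30 than at day 7 (48.6% of all were), with a median of -0.33, and 6 of 10 were lower on every array (6.07% of all): Egr1, Fos, both Jun probe sets, Junb and Nr4a1. Egr1 differed by -1.38 ± 0.28 (adjusted p = 0.133, limma), or 2.61-fold lower, with the smallest adjusted p of any member in the 12 comparisons. It stayed at -1.17 or lower with any 1 array left out, and with the same array weights it passed at -1.34 (adjusted p = 0.0378, limma). Jun 1448694_at (-0.64 ± 0.18), Fos (-0.57 ± 0.22) and Junb (-0.43 ± 0.20) were the other 3 of the 4 with an unadjusted p under 0.05 (11.9% of all, 0% past the adjusted threshold). Without TAA day 7 replicate 2 the Jun and Junb differences were -0.35 and -0.21, and Jun 1417409_at went from -1.01 ± 0.55 to -0.21. The Fos difference was -0.38 without TAA day 30 replicate 2. Reactive glia markers were lower in 9 of 9 genes, bipolar markers in 6 of 6 and ganglion cell markers in 6 of 7 over the same interval, and 0 of these markers passed the adjusted threshold. Whether their shifts and those of the immediate early genes are linked was not tested.

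In vehicle retinas Nr4a1 was higher at day 30 by 0.42 ± 0.17 (adjusted p = 0.633, limma) without overlap, 1 of 10 against 10.6% of all, and by 0.23 without BSS day 7 replicate 3. The unadjusted share was 1 of 10 against 7.36%, and 0.0133% of all probe sets passed. In dexamethasone retinas Junb differed between the days by -0.53 ± 0.20 (adjusted p = 0.171, limma), 1 of 10 against 18.3% of all at an unadjusted p under 0.05. With Atf3 (-0.10 ± 0.17) it made 2 of 10 below the day 7 arrays without overlap, against 14.8% of all. This was the comparison in which most probe sets changed, 863 in all (1.92%), with 0 of the 10 members among them. Reactive glia markers were lower at day 30 in 9 of 9 genes (mean -1.30, 2 past the adjusted threshold of limma), microglia and leukocyte markers in 10 of 10 (-0.82, 1 past it) and bipolar markers in 6 of 6 (-0.29, 0 past it). Their part in the Junb and Atf3 values was not tested.

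The change of the triamcinolone effect from day 7 to day 30 was tested by an interaction term, day 30 minus day 7. It was -1.49 ± 0.39 for Egr1 (adjusted p = 0.815, limma), -0.93 ± 0.31 for Fos, -0.60 ± 0.24 for Nr4a1 and -0.59 ± 0.26 for Jun 1448694_at, which were the 4 of 10 with an unadjusted p under 0.05 (5.63% of all, 0% past the adjusted threshold). The median over the 10 was -0.51. For dexamethasone 0 of 10 had an unadjusted p under 0.05 in limma (8.16% of all), with a median change of -0.02. The change of the difference between the steroids was 1.19 ± 0.39 for Egr1 (adjusted p = 0.229, limma) and 1.73 ± 0.77 for Jun 1417409_at, and with the other Jun probe set these were the 3 of 10 with an unadjusted p under 0.05 (13.8% of all). The 1417409_at value rested on single arrays in 2 groups, being 0.93 without TAA day 7 replicate 2 and 2.49 without DEX day 30 replicate 3.

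Over the 18 arrays the member probe sets form 45 pairs, of which 30 correlated above 0, with a median r of 0.191. Fos and Egr1 were the closest pair, with r = 0.858 and rho = 0.841. The permutation p for r was 1e-05, the smallest that 100000 resamples can give, and 0.00045 after Benjamini-Hochberg adjustment over the 45 pairs. Without the 2 arrays farthest from the Fos median (BSS day 30 replicate 1 and TAA day 30 replicate 2) r was 0.767, and within groups, after group means were taken off, it was 0.878. Among 18192 genes Egr1 had the highest r with Fos. Fos and Nr4a1 followed at r = 0.685 and rho = 0.740 (adjusted permutation p = 0.0237 for r), with 0.709 without those 2 arrays and 0.542 within groups. Junb and Atf3 reached 0.670 over 18 arrays but 0.416 without TAA day 7 replicate 2 and BSS day 30 replicate 1. Fos with either Jun probe set stood at 0.168 and 0.0682, and Fos with Fosb at -0.566, the lowest of the 45 pairs. In all, 6 pairs had an adjusted permutation p under 0.05 by r and 7 by rho. The permutations moved values freely over all 18 arrays, so these p-values also count differences between groups that a pair shares. No p was computed for the r within groups. Values of a pair come from the same array, so they share its RNA and hybridization.

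**Figure D3:**
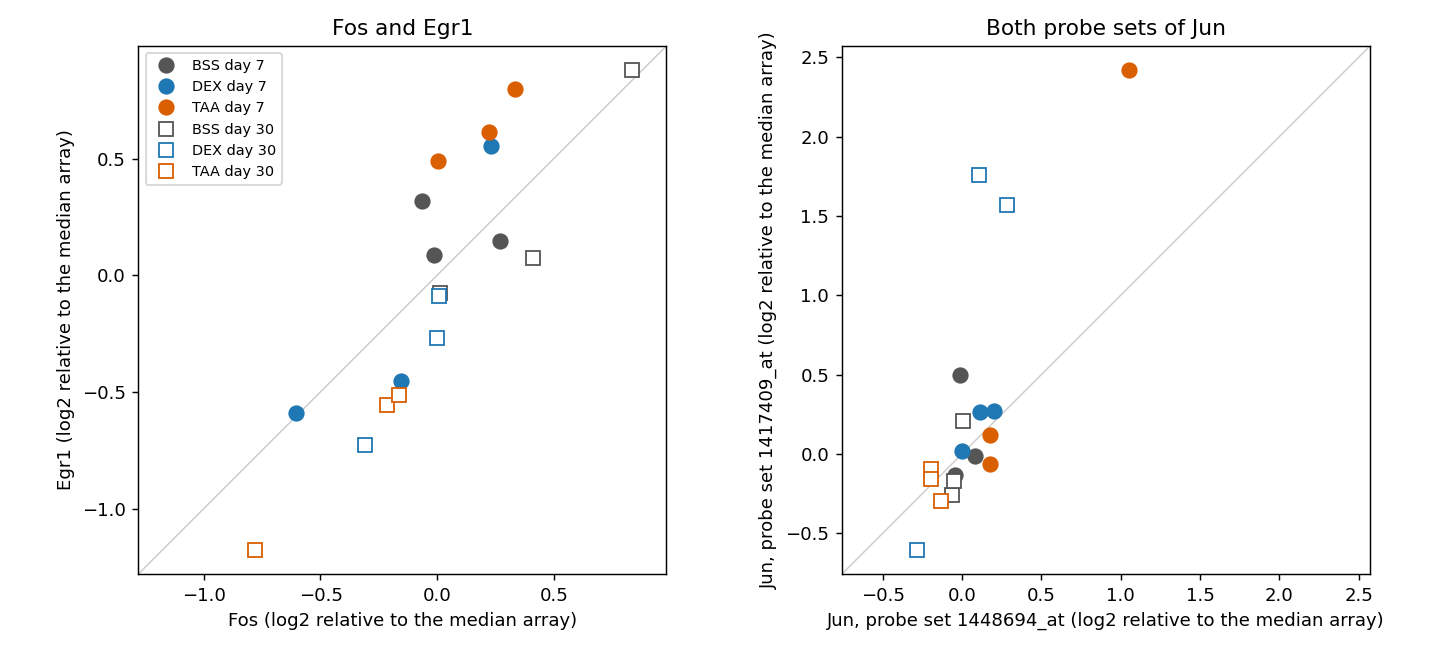
Relative log2 values of member pairs on the 18 arrays, each point 1 array in the colour of its treatment (grey BSS, blue DEX, orange TAA; filled circles day 7, open squares day 30). Fos and Egr1 follow each other (r = 0.858), while the Jun probe sets correlate at 0.813. On 3 arrays, DEX day 30 replicates 1 and 2 and TAA day 7 replicate 2, the first Jun probe set exceeds the second by 1.28 to 1.65.

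**Figure D4:**
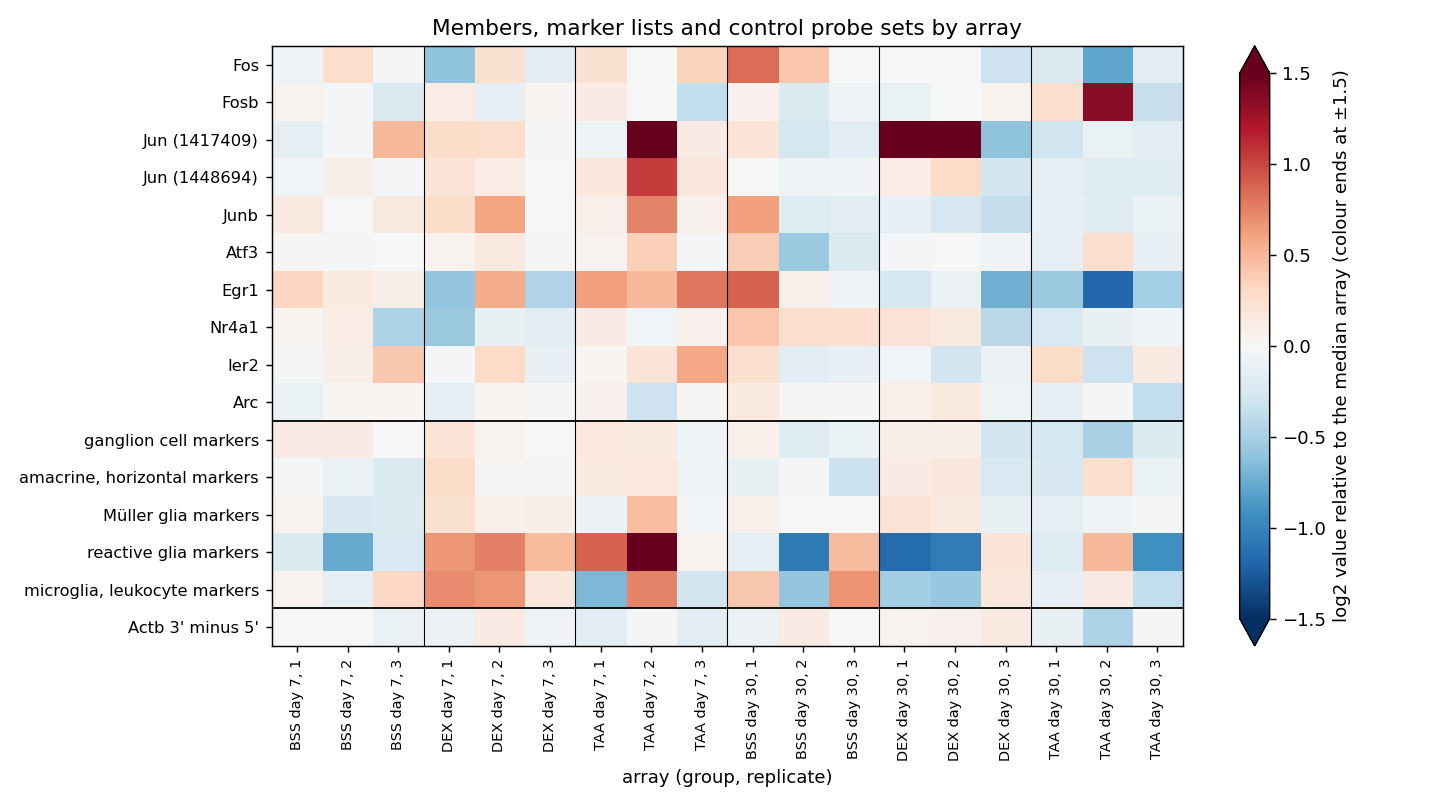
Relative log2 values of the 10 member probe sets, of the means of 5 marker lists and of the Actb 3′ minus 5′ value (rows) on the 18 arrays (columns, by group), on a colour scale centred on 0. BSS day 30 replicate 1 has all 10 probe sets above 0, and TAA day 30 replicate 2 has the lowest Egr1 and Fos beside the highest Fosb.

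The genes most like the mean of the 9 over the 18 arrays, with 1 probe set a gene, were Mrpl19 (r = 0.836), Spg20 (0.784), Mgarp (0.775), Prps1 (0.771), Mllt3 (0.762), Hpca (0.762), Yars2 (0.760) and Cspg5 (0.759). Of the 9 themselves, Fos reached 0.656 and Fosb -0.196 with the mean they are part of. The mean of the 9 was below 0 on all 3 triamcinolone arrays of day 30 (-0.13, -0.12 and -0.19) and above 0 on all 3 of day 7 (0.14, 0.43 and 0.18).

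Other genes of the pathway were taken from 9 lists by textbook role, chosen with earlier results of these data known. They gave 296 probe sets of 129 genes, and each probe set of a gene counts separately below. Against vehicle, 0 of the 296 passed the adjusted threshold for either drug at either day (limma, Benjamini-Hochberg), and an unadjusted p under 0.05 was found for 3.04% (dexamethasone) and 9.8% (triamcinolone) of them at day 7 and for 6.42% and 7.09% at day 30. The shares over all probe sets were 3.38% and 3.75% at day 7 and 11.3% and 6.74% at day 30. The list share was above this for triamcinolone at day 7 and near or below it in the other comparisons with vehicle. Because of how the lists were chosen, the higher share at day 7 is a description, and it was not tested. Between the days in dexamethasone retinas 3 of the 296 passed (1.01%), a smaller share than the 1.92% of all probe sets. A probe set of Homer1, the activity-regulated synaptic scaffold, rose by 0.72 ± 0.12 from day 7 to day 30 (adjusted p = 0.0183, limma). Its values went from -0.17, -0.16 and -0.18 to 0.71, 0.60 and 0.33. A probe set of Camk2a, a calcium-dependent kinase, rose by 0.62 ± 0.12 (adjusted p = 0.0283, limma), and a probe set of Elk3, an SRF partner, fell by 0.84 ± 0.18 (adjusted p = 0.0332, limma). Each of the 3 kept its direction without any 1 array, but passed in only 2 of the 6 fits that left out a dexamethasone array, with adjusted p up to 0.13 for Homer1, 0.163 for Camk2a and 0.18 for Elk3 (limma, each without DEX day 7 replicate 1); the call was also lost without DEX day 7 replicate 2 and without DEX day 30 replicate 1 or 2. The other probe sets of these genes (6 in all for Homer1, 6 for Camk2a and 4 for Elk3) did not pass and lay on both sides of 0. Another Homer1 probe set was at -0.45 ± 0.24 and another of Camk2a at -0.37 ± 0.13, both below their day 7 arrays without overlap, and the other Elk3 probe sets ran from -0.19 to 0.16.

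Against vehicle the lists showed values on both sides. For triamcinolone at day 30, 14 of 21 probe sets of AP-1 partners were lower (median -0.04), 18 of 28 of the other EGR, KLF and NR4A factors (-0.05), 28 of 60 of the other immediate and delayed early genes (0.02), 13 of 24 neuronal activity genes (-0.06) and 43 of 72 upstream kinases and factors (-0.05). The list of MAP kinase phosphatases and feedback inhibitors had 22 of 28 lower, with a median of -0.10. ATF4 and stress genes had 8 of 19 lower (0.07), axon injury genes 10 of 21 (0.02) and the glucocorticoid receptor with its targets 10 of 24 (0.05). Of all probe sets 56.1% were lower in that comparison. Single probe sets of smallest p, none past the adjusted threshold, were those of Nr4a3, the relative of Nr4a1, at -0.68 ± 0.22, of Jund at -0.51 ± 0.21, of Klf6 at 0.52 ± 0.13 and of Penk, the enkephalin precursor, at 1.13 ± 0.29. Other probe sets of 3 of these genes gave other values. The second of Jund was at 0.17 ± 0.12, the other 4 of Klf6 ran from -0.39 to 0.28, and the other 2 of Nr4a3 were at -0.06 and -0.03.

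For triamcinolone at day 7 the list of other immediate and delayed early genes had 9 unadjusted calls higher and 3 lower of 60 (3.75% of all probe sets in either direction), and 37 of 60 were higher. The glucocorticoid receptor list had 5 such calls of 24, all higher. Among their probe sets of smallest p, Cebpd, an acute phase transcription factor, was at 0.61 ± 0.11 (adjusted p = 0.320, limma), and Gadd45b, a growth arrest gene, at 1.29 ± 0.39, or 0.77 without TAA day 7 replicate 1. Egr2, the close relative of Egr1, was at 0.52 ± 0.20, but at 0.20 without TAA day 7 replicate 2, and its other probe set was at 0.19 ± 0.22. For dexamethasone at day 30, Egr4 was at -0.42 ± 0.14 and a probe set of Jund at -0.55 ± 0.21, while the second of Jund was at 0.01 ± 0.12. Without DEX day 30 replicate 3 Egr4 was at -0.60 (adjusted p = 0.0274, limma) and the first Jund probe set at -0.80 (adjusted p = 0.0361, limma), and without replicate 1 they were at -0.27 and -0.37. For dexamethasone at day 7 the medians of the 9 lists lay between -0.04 and 0.05.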

How the data were processed

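Retinal RNA was amplified in 2 cycles from 0.1 ug per sample and hybridised to Affymetrix arrays, per the labels' protocols. The authors processed the arrays with RMA, per the submitters' processing notes; its version and settings are not given in the sources used here. The deposited values were taken as log2 values, RMA's usual scale and direction, and the median of every probe set over the 18 arrays was within 5e-07 of 0. They hold no level or signal over background.

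Groups came from the sample titles. Of 45101 probe sets 64 controls were left out, and 45037 entered 1 linear model over the 18 arrays, with a coefficient for each group and no further normalization (limma 3.58.1, run in R 4.3.3, 12 residual and 5.48 prior degrees of freedom). Within a comparison p-values were adjusted over all of them by Benjamini-Hochberg, with a threshold of 0.05. The platform annotation named 1 gene for 34945 probe sets, several for 932 and none for 9160. The fit was tested on simulated data. P-values measure the spread between the deposited arrays.

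The members and lists were chosen with earlier results of these data known. All member probe sets are named, with list members that passed or had the smallest p, and the 8 genes most like the members' mean. The alternatives were 1 probe set per gene, the 22518 probe sets of widest interquartile range, quantile normalization, median centring, array weights, robust moderation, fits of the compared groups alone, a replicate block, the Actb covariate and leaving out arrays. Same-numbered arrays deviated together in 1 of 15 pairs of groups, BSS and DEX at day 30, so a replicate block was also added to a fit of those 6 arrays after the data were seen, as was leaving out arrays for the listed probe sets.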

Additional observations from a re-analysis of the deposited data

Results flagged for a closer look

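The triamcinolone effect on Egr1 went opposite ways at the 2 days: the arrays minus the vehicle mean were 0.43, 0.31 and 0.61 at day 7 and -0.85, -1.47 and -0.81 at day 30, and the interaction term was -1.49 ± 0.39 (adjusted p = 0.815, limma). Nr4a1 showed the same signs with smaller values, 0.23, 0.07 and 0.17 against -0.53, -0.42 and -0.37, and a term of -0.60 ± 0.24 (adjusted p = 0.869, limma). Its day 7 side leaned on a low vehicle array, replicate 3 at -0.48. The other vehicle arrays read 0.04 and 0.11 and triamcinolone 0.12, -0.04 and 0.06, so these groups overlapped at day 7. With single arrays left out the Nr4a1 term ran from -0.71 to -0.41. For Jun 1448694_at the values were 0.17, 1.04 and 0.16 against -0.10, -0.16 and -0.16, with a term of -0.59 ± 0.26 (adjusted p = 0.869, limma). It was -0.30 without TAA day 7 replicate 2. At day 7 the dexamethasone arrays minus the vehicle mean were -0.45, -0.01 and -0.05 for Nr4a1 and the triamcinolone arrays 0.23, 0.07 and 0.17, and the steroids differed by -0.32 ± 0.17 (adjusted p = 0.839, limma). The opposite signs here depend on the same vehicle mean, which the difference between the steroids does not use. None of the 4 passed the adjusted threshold. Groups of 3 arrays are too small for a test of single outlying arrays.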

How the results depend on the processing

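With array weights 1 member probe set was called in each of 5 comparisons: Jun 1417409_at for DEX minus BSS at day 30 (1.54, adjusted p = 0.0132, limma), DEX minus TAA at day 30 (1.67, adjusted p = 0.0128) and DEX day 30 minus day 7 (1.25, adjusted p = 0.0177), and Egr1 for DEX minus TAA at day 7 (-0.92, adjusted p = 0.0413) and TAA day 30 minus day 7 (-1.34, adjusted p = 0.0378). The weights also put the median over members at -0.0787 for DEX minus TAA at day 7 and at -0.26 for the change of the TAA effect; without the 2 arrays of widest spread these were -0.0776 and -0.23. Over the 22518 probe sets of widest interquartile range, which hold 7 of the 10, the medians were -0.33 for DEX minus BSS at day 30 and -0.57 for TAA day 30 minus day 7. They were -0.16 for the change of the DEX effect and 0.57 for the change of DEX minus TAA. This filter dropped Arc, Atf3 and Fosb and left the difference of each other member as it was, so these medians moved only because fewer members entered them. Leaving out 1 array gave 0 to 1 calls for DEX minus BSS at day 30, for DEX minus TAA at day 30 and for the change of DEX minus TAA, the call being Jun 1417409_at without DEX day 30 replicate 3 (1.74, 1.85 and 2.49). Medians without 1 array ran from -0.22 to -0.0421 for TAA minus BSS at day 30, -0.35 to -0.0776 for DEX minus TAA at day 7, 0.0567 to 0.30 for DEX minus TAA at day 30 and -0.59 to -0.24 for the change of the TAA effect. They took both signs for DEX minus BSS at day 7 (-0.063 to 0.0189) and day 30 (-0.147 to 0.026), the change of the DEX effect (-0.134 to 0.0281), BSS day 30 minus day 7 (-0.133 to 0.0781) and DEX day 30 minus day 7 (-0.0718 to 0.0382). The causes of the shifts with array weights or without single arrays were not tested. The 32 single differences examined had an unadjusted p under 0.05 (limma), groups without overlap, or a call under some alternative. Of these, 19 shrank to under 1/1.5 of their value without some array, and 541 alternatives gave 0 reversed directions and 8 that passed. Leaving out 1 array cannot reverse a difference between groups that do not overlap, so the 0 was partly set by this choice. Outside the 32, several differences changed sign without 1 array. For example, Jun 1417409_at went from 0.71 to -0.09 for TAA minus BSS at day 7. Atf3 went from 0.11 to -0.10 for DEX minus BSS at day 30, and Egr1 from -0.20 to 0.16 for DEX day 30 minus day 7. With the replicate block 0 member probe sets were called in every comparison, and in the added fit of BSS and DEX at day 30 the smallest adjusted p was 0.214 (limma), so the pairing changed no call. A filter on level and a variance trend on the mean were not run, since the centred values hold no level.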
